A study of Mus musculus with 6 samples.

Results

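ND6, ND5, ND4L and COX3 are protein genes of the mitochondrial genome, and their transcripts were measured in whole mouse testis after atrazine (ATZ) treatment. Members were taken by gene symbol. Each probe set whose array annotation gives one of these 4 genes as its only symbol was used, which gave 4 probe sets, 1 per gene, of 41345 on the array. All mice were C57BL/6J males, and testes were collected at 10 weeks of age. ATZ-treated mice drank water with 100 mg/l of ATZ over 3 weeks, a dose of about 25 mg/kg/day, and were then kept for 2 weeks without it, while control mice were not treated. Each group has 3 Gene-Chip arrays, and the sources do not say whether an array holds RNA of 1 animal or of a pool. The p-values of the fit over all probe sets therefore measure the spread between these arrays only. Values are log2 signals after robust multi-array average (RMA), a method that corrects background, brings all arrays to 1 distribution and summarises the probes of a probe set. The median log2 signal was between 6.6 and 6.69 on the 6 arrays. Of the 6 markers fixed for spermatids 5 were measured, among them the protamine Prm1, and they read between 12.35 and 13.81. For Leydig cells 3 of 5 were measured, and they read between 8.66 and 13.16. All of these lay above the array medians, so the measured markers go with the labelled tissue. Whole testis is a mixture, and in it fewer cells of a type and less RNA per cell cannot be told apart.

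Mitochondrial DNA (mtDNA) is a small circle that codes for subunits of the respiratory chain and for the ribosomal and transfer RNAs needed to make them. Both of its strands are transcribed as long precursors, which are cut into single RNAs mostly at the transfer RNAs between the genes. Nearly all of its protein genes are heavy-strand-coded, among them ND5, ND4L and COX3. ND6 is the only light-strand-coded protein gene, and the rest of the precursor that carries it is mostly antisense RNA, which is removed by the exoribonuclease PNPase (Pnpt1) with the helicase SUV3 (Supv3l1). ND6, ND5 and ND4L are subunits of the membrane arm of complex I, the NADH dehydrogenase that passes electrons to ubiquinone and pumps protons. COX3 is 1 of the core subunits of complex IV, cytochrome c oxidase, which hands the electrons to oxygen. Germ cells of the testis rely on these complexes to different degrees as they mature, and the mitochondria of spermatids are finally packed around the sperm tail.

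ND6 had higher signals in ATZ-treated than in control samples, while the heavy-strand-coded members were equal to the controls or slightly below them. The members were chosen by their measured ATZ and control values, so these differences describe the genes and do not test them. ND6 belongs to the genes that the study listed as changed, with other software, at a fold of 1.5 and p under 0.05. In the limma fit used here the unadjusted p of ND6 was 0.051, so it missed that p cutoff. ND4L, ND5 and COX3 are the 3 heavy-strand-coded genes with the lowest differences among 9 measured. The lowest of the genes left out was CYTB, at a log2 difference of -0.05, next to -0.07 for COX3 as the last one taken. In the limma fit over all 41345 probe sets, 0 of the 4 members had an adjusted p under 0.05 and 0 had an unadjusted p under 0.05. Over all probe sets the same fit called 0% at an adjusted p under 0.05. An unadjusted p under 0.05 was found for 4% and, together with a fold of 1.5 or more, for 1.01%. With a variance trend and robust settings, 0 of the 4 members passed the adjusted and 2 the unadjusted threshold. The share of all probe sets past the unadjusted threshold was not counted in that fit, so these 2 have no background to be read against.

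ND6 read 8.79, 10.51 and 9.28 in ATZ replicates 1, 2 and 3. In the controls it read 8.49, 8.3 and 8.76. ATZ replicate 2 stood far above the other arrays, and ATZ replicate 1 lay only 0.03 above control replicate 3, so the groups did not overlap but nearly touched. The ATZ mean was 9.53 ± 0.89 (SD, n = 3) and the control mean was 8.52 ± 0.23 (SD, n = 3), which gives a log2 difference of 1.01 with a standard error of 0.42. On the linear scale this is a 2.01-fold higher signal. All ATZ arrays were above all control arrays for 4.27% of probe sets on the array, and a difference as large as that of ND6 or larger was found for 34 probe sets (0.0822%). Among the 23521 probe sets with 1 gene symbol there were 2 (0.0085%), ND6 included. Without ATZ replicate 2 the log2 difference of ND6 was 0.52, and leaving out any other single array gave 0.90 to 1.38. ND6 also had the widest spread within ATZ of the 2903 probe sets with 1 symbol whose mean signal lay within 0.5 of its own. Their median SD in ATZ was 0.104, against 0.89 for ND6, and in the controls 389 of them, or 13.4%, had an SD as wide as that of ND6 or wider.

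**Figure D1:**
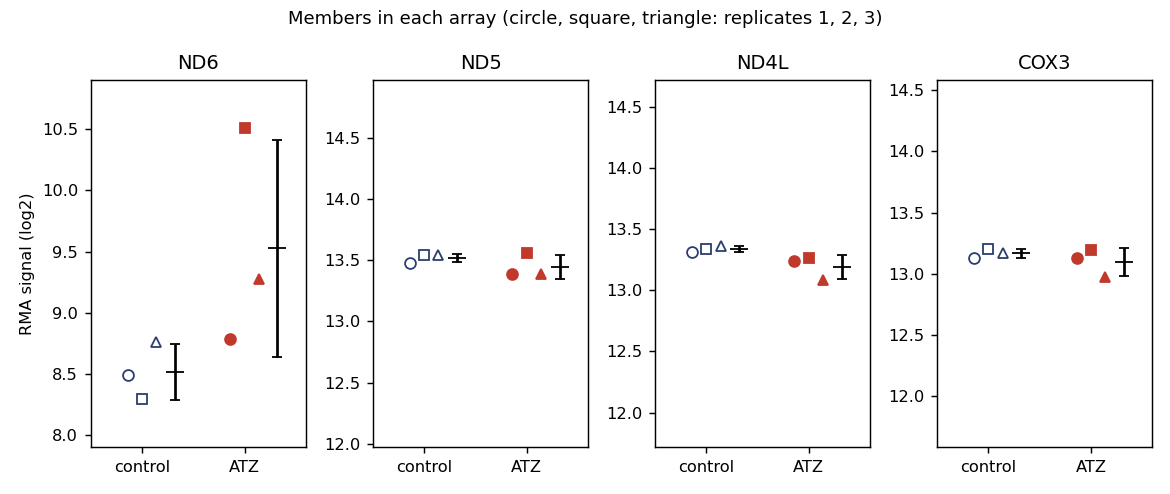
Signal (log2) of ND6, ND5, ND4L and COX3 in each control (open, blue) and ATZ (filled, red) array, with the mean and SD of each group of 3 in black; every panel spans 3 log2 units. ND6 reaches 10.51 in ATZ replicate 2, while ND5, ND4L and COX3 stay between 12.97 and 13.56 on all arrays.

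ND5, the large membrane subunit at the far end of complex I, read 13.39, 13.56 and 13.39 in ATZ replicates 1, 2 and 3. The control arrays read 13.48, 13.54 and 13.54, and ATZ replicate 2 was the highest of all, so the groups overlapped. The ATZ mean of ND5 was 13.45 ± 0.098 (SD, n = 3) and its control mean 13.52 ± 0.035 (SD, n = 3). The log2 difference was thus -0.07, with a standard error of 0.09. It was -0.13 without ATZ replicate 2 and -0.045 without ATZ replicate 1 or ATZ replicate 3. The end of ND5 and the end of ND6 overlap on opposite strands in the RefSeq annotation, yet ND6 minus ND5 varied by 2.19 log2 units over the 6 arrays. Where the probes of either gene lie in that overlap was not tested.

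ND4L, a small membrane subunit of complex I, read 13.24, 13.26 and 13.08 in ATZ replicates 1, 2 and 3 and 13.31, 13.34 and 13.36 in the controls. No ATZ array reached the lowest control array, and the gap between the groups was 0.05. The means were 13.19 ± 0.099 (SD, n = 3) and 13.34 ± 0.025 (SD, n = 3), a log2 difference of -0.14 with a standard error of 0.09. All ATZ arrays were below all control arrays for 3.21% of probe sets, and for 5.1% of the 196 probe sets with a mean above 13. Without ATZ replicate 3 the difference was -0.09.

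The ND4L probe set stands apart from those of the other members in its place on the array. Identifiers of the other mtDNA genes follow each other in 1 run, but that of ND4L lies among genes of chromosome 1, between Col19a1 and Adgrb3. The next identifier belongs to a probe set annotated with ATP6, ATP8 and Gm10925 together. Gm10925 is a pseudogene on chromosome 1 that has the ATP6 names among its synonyms in RefSeq, and its neighbour there is another pseudogene, Gm10222. Whether the ND4L probe set reads the mtDNA transcript, a nuclear copy of it or both cannot be told apart from these values. ND4L minus COX3 was between 0.07 and 0.19 on all 6 arrays, which does not bear on the source of the signal.

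COX3 read 13.13, 13.19 and 12.97 in ATZ replicates 1, 2 and 3 and 13.13, 13.2 and 13.17 in the controls. Only ATZ replicate 3 lay below the control range. For COX3 the ATZ mean was 13.10 ± 0.11 (SD, n = 3), the control mean 13.17 ± 0.035 (SD, n = 3) and the log2 difference -0.07, with a standard error of 0.09. Without ATZ replicate 3 the difference was -0.0067. ND5 minus COX3 was between 0.26 and 0.42 on all arrays, and its group means differed by -0.0033.

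The remaining heavy-strand-coded genes differed little between the groups. ND1, ND2, COX1 and CYTB (the cytochrome b of complex III) had log2 differences of -0.02, -0.03, -0.03 and -0.05, and ND3 and ND4 had 0.01 and 0.02. Standard errors of the 9 heavy-strand-coded genes, members included, were between 0.081 and 0.101. Of these 9 genes, 7 had a difference below 0 and 2 above, and their median was -0.033. A difference below 0 was found for 48.3% of all probe sets and for 49% of those with a mean above 13. The split depended on scaling, since 9 of 9 were below 0 with arrays centred on their medians, as were 58% of all probe sets, and 7 of 9 when quantile normalization was run again, while ND6 stayed at 0.98 and 1.05. Not 1 of the 9 passed an adjusted or an unadjusted p of 0.05 in the limma fit. The number below 0 was 9 of 9 without ATZ replicate 2 and 6 of 9 without ATZ replicate 1 or ATZ replicate 3. All 9 had their highest ATZ signal in ATZ replicate 2, which holds for 35.2% of all probe sets and for 46.4% of the 196 probe sets with a mean above 13. ATZ replicate 2 was thus the highest ATZ array for ND6 and for the heavy-strand-coded genes alike, but the latter varied by only 0.11 to 0.28 over the 6 arrays and ND6 by 2.21. The heavy-strand-coded genes read between 12.97 and 13.9, near the highest signals of the arrays, at 14.18 to 14.21, and a small span there does not show that the transcripts were steady. Signals of different probe sets do not rank transcripts by abundance, since probes differ in how strongly they bind.

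**Figure D2:**
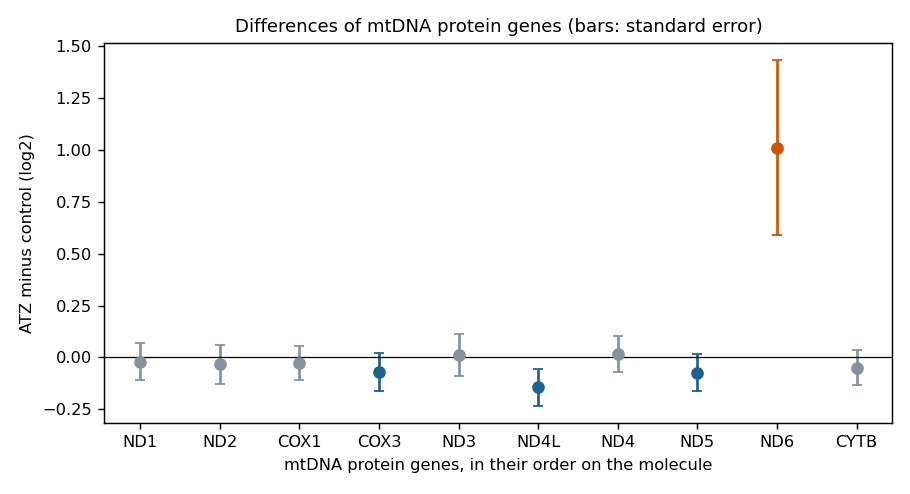
Log2 difference, ATZ minus control, of the 10 mtDNA protein genes with a probe set of their own, in gene order; bars are standard errors of the limma fit (n = 3 arrays per group), with ND6 in orange, the other members in blue and further genes in grey. ND6 lies at 1.01 and the 9 heavy-strand-coded genes lie between -0.14 and 0.02.

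ND6 was then set against the heavy-strand-coded members within each array. The mean log2 signal of ND5, ND4L and COX3 was subtracted from that of ND6. The result was -4.46, -2.83 and -3.87 in ATZ replicates 1, 2 and 3 and -4.82, -5.06 and -4.60 in the controls. Every ATZ array lay above every control array, and the spread in ATZ was the wider one. Group means were -3.72 ± 0.83 (SD, n = 3) and -4.82 ± 0.23 (SD, n = 3), a difference of 1.11. With all 9 heavy-strand-coded genes in place of the 3, the difference was 1.05. Without ATZ replicate 2 the 3-gene value was 0.66. The subtraction shows unequal change of the probe sets only, and the values themselves are no ratio of transcripts. It is taken against probe sets near the top of the scale, and whether a shift of all mtDNA signals would be equally large there was not tested.

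**Figure D3:**
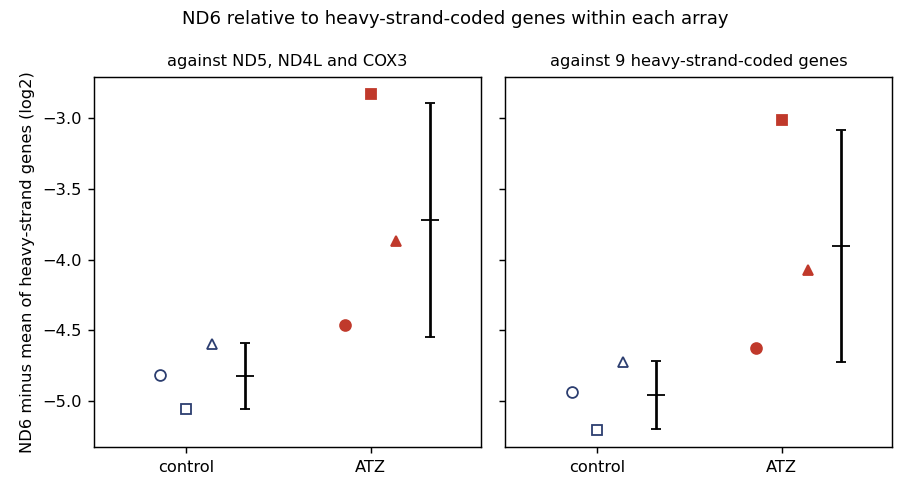
ND6 minus the mean of ND5, ND4L and COX3 (left) or of all 9 heavy-strand-coded genes (right), in log2 units, for each control (open, blue) and ATZ (filled, red) array, with group mean and SD in black. ATZ replicate 2 lies highest in both panels, at -2.83 and -3.01, and the controls lie between -5.21 and -4.60.

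A probe set without a gene symbol, next to ND6 in the order of identifiers, followed it closely. It was singled out after its values were seen. It read 8.63, 10.26 and 8.76 in ATZ replicates 1, 2 and 3 and 8.38, 8.25 and 8.47 in the controls. As for ND6, ATZ replicate 2 was far above the rest and the groups did not overlap. The log2 difference was 0.85 with a standard error of 0.42, and 0.33 without ATZ replicate 2. Its correlation with ND6 over the 6 arrays was 0.98 (Pearson's r, a description that rests on ATZ replicate 2). The annotation does not say what it measures.

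Further unnamed probe sets lie in the same run of identifiers. From ND1 to ND6 there are 23 probe sets, 9 with 1 symbol, 1 with several and 13 with none. Of the 13 unnamed ones, 1 was above 0, the neighbour of ND6, and the other 12 were below 0, at log2 differences between -0.77 and -0.043, against 48.3% below 0 among all probe sets. This count rested on ATZ replicate 3, without which 7 of the 12 were above 0 and 5 below. In 1 of these 12 the ATZ arrays were all below the controls, which holds for 3.21% of all probe sets. It read 5.65, 5.66 and 5.47 in ATZ replicates 1, 2 and 3 and 6.11, 6.64 and 6.35 in the controls, so its gap of 0.45 between the groups was wider than the 0.03 of ND6. Its log2 difference was -0.77 with a standard error of 0.15, and the limma fit gave an unadjusted p of 0.00167 and an adjusted p of 0.998. The next probe set after ND6, also unnamed, read 9.93, 10.22 and 8.22 in ATZ replicates 1, 2 and 3 and 9.46, 10.53 and 9.33 in the controls. Its difference of -0.32 became 0.30 without ATZ replicate 3. RefSeq places 22 transfer RNA and 2 ribosomal RNA genes on mtDNA besides 13 protein genes, and 0 of these RNA genes has a probe set with its symbol alone.

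**Figure D4:**
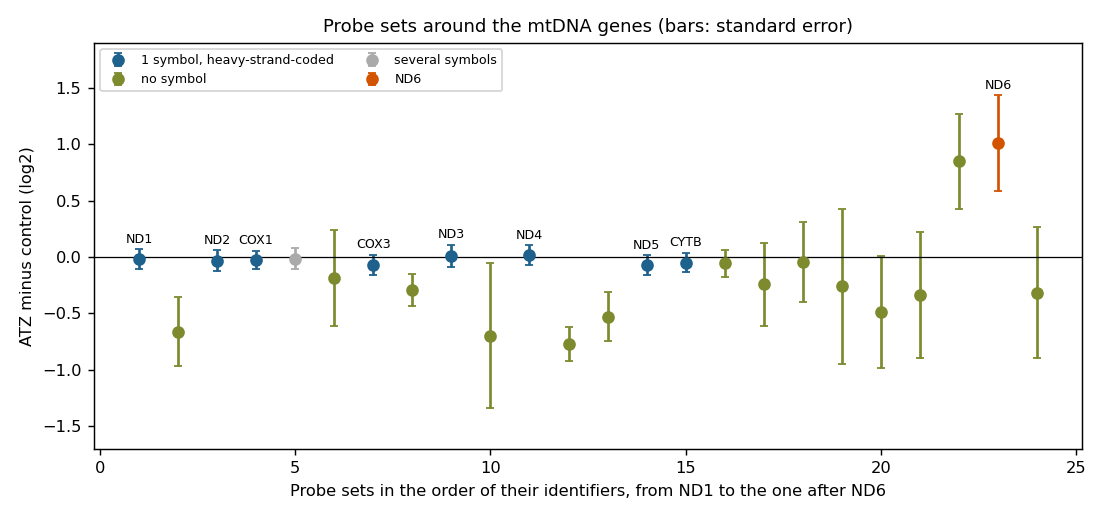
Log2 difference, ATZ minus control, of the probe sets from ND1 to the one after ND6 in the order of their identifiers; bars are standard errors of the limma fit (n = 3 arrays per group). ND6 (orange) and the unnamed probe set before it stand at 1.01 and 0.85, the other unnamed ones (green) lie below 0 with all 6 arrays in the fit, and heavy-strand-coded genes (blue) lie near 0.

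Nuclear genes in 6 mitochondrial lists did not show a difference of the size seen for ND6. Only 2 of the 23521 probe sets with 1 symbol (0.0085%) reached that size, ND6 included, so its absence from these lists says little about them. The lists cover mitochondrial transcription, mtDNA replication, RNA processing and decay, subunits of complexes I and IV, and outer membrane, import and matrix proteins. Of 69 measured genes in the 6 nuclear lists, 34 were below 0, 32 above and 3 at 0, between -0.30 and 0.12, and their median was 0. Over all 22180 genes with 1 symbol, 11277 were below 0, 10610 above and 293 at 0, and the median was -0.0033. In the limma fit 0 of the 69 passed an adjusted p of 0.05. Mterf1b, a relative of the mitochondrial transcription termination factor, alone had an unadjusted p under 0.05, 1 of 69 against 2.39% of all genes with 1 symbol. It read 2.39, 2.64 and 2.43 in ATZ replicates 1, 2 and 3 and 2.81, 2.77 and 2.77 in the controls, all near the lower end of the scale. Its log2 difference was -0.30, with a standard error of 0.097. The 10 genes of mitochondrial transcription split into 6 above and 4 below 0 (median 0.03). The RNA polymerase Polrmt had a log2 difference of -0.08 (standard error 0.086) and Tfam, which packs mtDNA and opens its promoters, had 0.05 (standard error 0.107). Both are named for their roles and not by the size of their change.

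Among 18 genes of mitochondrial RNA processing and decay, 10 were below 0, 7 above and 1 at 0 (median -0.005). The largest differences were -0.15 (standard error 0.14) for Trmt10c, a subunit of the RNase that cuts the 5′ ends of transfer RNAs, and -0.12 (standard error 0.11) for Pnpt1. Pnpt1 read 8.7, 8.92 and 8.66 in ATZ replicates 1, 2 and 3 and 8.81, 8.98 and 8.86 in the controls, and the groups overlapped. Its partner Supv3l1 had 0.02 (standard error 0.092). Of the 10 genes of mtDNA replication, 3 were above 0, 5 below and 2 at 0, led by the single-strand binding protein Ssbp1 at -0.25 (standard error 0.21) and the polymerase subunit Polg2 at 0.09 (standard error 0.096).

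Nuclear subunits of the same complexes were measured as well. The 6 core subunits of complex I had 3 genes on each side of 0 (median -0.005). The ends of their range were Ndufs8 at -0.06 (standard error 0.14) and, at the same 0.04, Ndufv2 (standard error 0.077) and Ndufs3 (standard error 0.080). The 15 nuclear subunits of complex IV had 10 genes above 0 and 5 below (median 0.02). The testis form Cox7b2 had -0.17 (standard error 0.12) and the muscle form Cox7a1 had -0.14 (standard error 0.15). In the list of outer membrane, import and matrix proteins, 7 of 10 were below 0 and 3 above (median -0.02). Tomm40, the import channel of the outer membrane, had -0.16 (standard error 0.11), and the matrix chaperone Hspd1 had -0.13 (standard error 0.17).

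**Figure D5:**
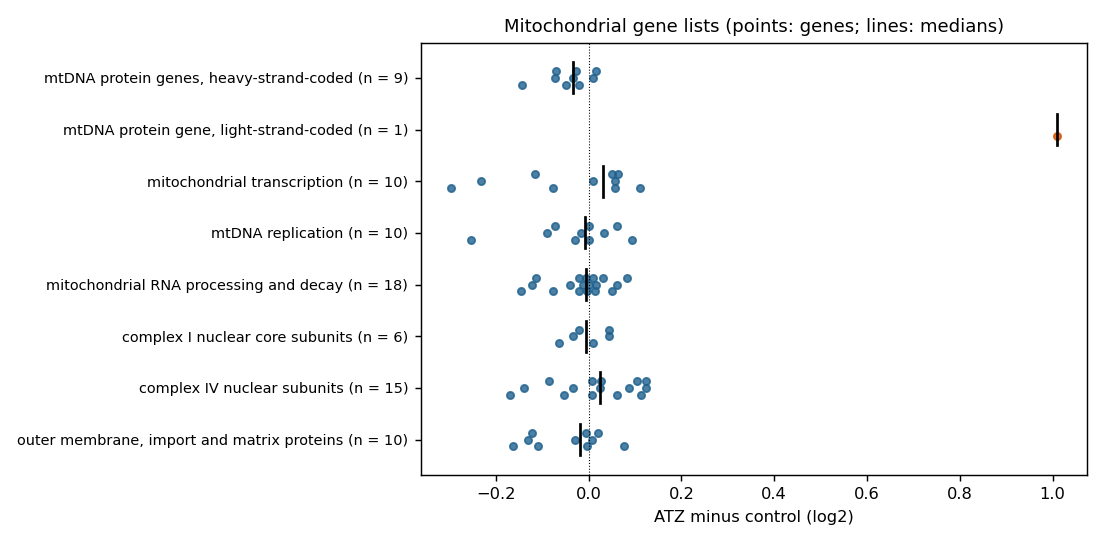
Log2 difference, ATZ minus control, of each gene (point) in the mitochondrial gene lists, with the median of each list as a black line. ND6 (orange) stands alone at 1.01, and the points of all other lists lie between -0.30 and 0.12.

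Over the 6 arrays, the genes with the pattern most like ND6 were Epb41l4aos, Ncbp2, a subunit of the nuclear cap-binding complex, and Lman2l, with Pearson's r of 0.994, 0.989 and 0.987 among 14829 probe sets with 1 symbol and a mean above the median. Their log2 differences were 0.16, 0.14 and 0.04, well under that of ND6. With the heavy-strand-coded genes, ND6 had r between -0.37 and 0.72. Those most like ND5 were Ube3a, Scgb2b23-ps and Rrm1, with r of 0.99, 0.989 and 0.983. Zfp236, 4930413E15Rik and 1700031M16Rik were most like ND4L, with r of 0.999, 0.988 and 0.985, and Pibf1, Odf2l and Marchf7 were most like COX3, with r of 0.993, 0.992 and 0.992. These are descriptions over 6 arrays that share 2 groups. For ND6, 20 of the 14829 probe sets reached an r of 0.95 or more, against 27 for ND5, 23 for ND4L and 58 for COX3. How many would do so by chance over 6 arrays was not tested.

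Marker lists of testis cell types did not separate the groups in the way ND6 did. The summed signal of the measured markers overlapped between ATZ and control for 7 of 7 lists. Overlap is the usual case, since the groups were apart for only 4.27% of probe sets with ATZ higher and 3.21% with ATZ lower. ATZ replicate 2 was the highest or lowest array in 1 list, the pachytene spermatocytes, at 14.16 against 14.17 to 14.22 on the other arrays. On the log2 scale, the sum of 6 Sertoli cell markers was 12.26 to 12.48 in ATZ and 12.27 to 12.71 in the controls, and that of 6 leukocyte markers 10.18 to 10.56 and 10.07 to 10.78. The 3 measured Leydig cell markers summed to 13.41 to 13.49 and 13.37 to 13.68. All 3 had log2 differences below 0 (median -0.11), and all 4 measured epididymal markers lay above 0 (median 0.04). A difference below 0 was found for 48.3% of all probe sets. Each sum is led by its brightest markers. Of the red blood cell markers, 0 had a probe set with a single symbol. The part of cell composition in the ND6 values was not tested.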

How the data were processed

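RNA of 6 whole testes samples was hybridized to Affymetrix mouse gene 2.0 st arrays. The deposited values are log2 signals per probe set, made by the authors with RMA in the Affymetrix Expression Console, at 2 decimals. The versions, the genome build and a filter on dim probe sets are not given in the sources used here, and the number of arrays limits the precision. Genes were named through the annotation of the platform, in which 23521 probe sets have 1 symbol. RefSeq coordinates (GRCm38.p6) gave the order and overlap of mtDNA genes and the neighbours of Gm10925.

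ATZ-treated and control arrays were compared over all 41345 probe sets with limma 3.58.1 (lmFit and eBayes, two-sided, R 4.3.3) and Benjamini-Hochberg adjustment. A gene in a list was represented by its probe set with the highest mean. The fit was checked on simulated data with the same SD in both groups, which does not cover the unequal spread of ND6. Members and lists were chosen with earlier results of these data known. Named were all probe sets of the members and the mtDNA genes, in each other list the genes at an unadjusted p under 0.05 or else the 2 largest differences, and 3 genes per member by Pearson's r. Polrmt, Tfam, Supv3l1 and the unnamed probe sets beside ND6 were added. Alternatives were a replicate block, renormalization, other variance models, filters, linear means, other reference genes and each array left out. Tables were made with pandas 2.3.3 in Python 3.11.15.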

Additional observations from a re-analysis of the deposited data

How the results depend on the processing

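ND6, ND5, ND4L, COX3 and ND6 minus the heavy-strand-coded members kept their sign under every alternative run. These were 14 for each gene and 15 for ND6 minus the others. All moved by less than the pooled SD of both groups, though by more than the smaller control SD in some. With 3 arrays per group, leaving out a single array cannot move a difference by as much as the pooled SD. For those runs that outcome was fixed in advance, and only the sign and the size bear on the result. The pooled SD is also a wide limit for ND5 and COX3, whose differences of -0.07 are smaller than their ATZ SDs of 0.098 and 0.11. COX3 shrank to -0.0067 without ATZ replicate 3. The replicate block, the variance trend and robust settings and the filters leave a log2 difference unchanged by design, so they bear on p-values only. ND6 ranged from 0.52 to 1.38 with single arrays left out, and was 1.19 from means of linear values. No member had an adjusted p under 0.05 in any of these fits. ND6 had an unadjusted p under 0.05 with quantile normalization run again, a variance trend and robust settings, and fewer probe sets in the fit. The same held without ATZ replicate 1 or ATZ replicate 2. How many of all probe sets passed that threshold alone was not counted in these fits. Over all probe sets, the count at an adjusted p under 0.05 was 0, and it was 2 with a variance trend and robust settings, 2 when only probe sets brighter than the median were fitted and 1 when only those with 1 symbol were. Past both a fold of 1.5 and an unadjusted p of 0.05 were 416 probe sets, against 50 and 51 in these smaller fits. Leaving out single arrays gave 483 to 699, and the count was 656 when ATZ replicate 1, 699 when ATZ replicate 2 and 663 when control replicate 3 was dropped. Same-numbered samples deviated from their group means with correlations of 0.02, 0.11 and 0.26. Replicates 2 and 3 correlated best with their own number in both groups, and replicate 1 did not. Whether same-numbered samples were handled together cannot be told from these values. The numbers are used here only to name samples. With a replicate block the count was 499 and ND6 stayed at 1.01. The median of the heavy-strand-coded list was -0.0883 to -0.00333 without single arrays, and this alternative and those on the unnamed probe sets were chosen after seeing the data.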
